A study of Mus musculus with 298 samples.

Results

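Calbindin (Calb1), calretinin (Calb2), parvalbumin (Pvalb) and the 3 Necab genes (Necab1, Necab2 and Necab3) were followed, cell by cell, in thoracic sympathetic ganglia of mice. The 6 genes were chosen by name, as calcium-binding proteins. The table used held 5 of them among its 16892 genes, and Pvalb was not analysed here. Of the 5, Calb1, Necab1 and Necab3 passed the filter on low counts and were tested, while Calb2 and Necab2 had 4 counts each and did not pass.

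The 298 cells came from mice in which Wnt1-Cre, active in the neural crest and its descendants, was crossed to the R26R-Tomato reporter to mark the ganglia, and the labels give this cross for all groups. The labels give each cell an identity: 8 Ach1 and 8 Ach2 cells (16 cholinergic), 4 Glutamatergic cells and 193 noradrenergic cells, of which 10 are Noradrenergic1, 39 Noradrenergic2, 18 Noradrenergic4, 23 Noradrenergic5 and the rest Noradrenergic3. They leave 85 cells unclassified. The mice were of either sex and aged 11 to 38 days, no treatment is given, and no animals are named, so all cells of 1 sex and age (1 of 10 collections) were taken as 1 replicate. A collection may hold several animals or only 1, and in the small identities it is often a single cell.

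Calbindin, calretinin and parvalbumin carry EF-hands, helix-loop-helix motifs that bind calcium, and they take up calcium that enters a neuron during firing. Antibodies to them have long been used to tell classes of autonomic neurons apart. The NECAB proteins have EF-hand calcium-binding sequence at the N-terminal end and a domain related to bacterial monooxygenases at the C-terminal end. They have been described as partners of synaptic and signalling proteins: NECAB1 of synaptotagmin (Syt1), NECAB2 of adenosine and metabotropic glutamate receptors, and NECAB3 of an adaptor of the amyloid precursor protein (Apba2).

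The median cell had 33099 counts in all (range 7225 to 81589). Levels are given as counts per 10000 counts of the same cells, pooled within a collection, and a mean ± SD is over collections. Where identities are pooled, collections differ in the identities they hold, so the SD and range also hold differences between identities. Levels are not compared between genes, since the counts are not per length. The identities carried the markers of their labels: the 4 cholinergic markers summed to a median of 80.0 per 10000 in Ach1 and 56.7 in Ach2 cells, against medians of 0 to 0.178 in the noradrenergic identities, and the 7 sensory markers to 185 in Glutamatergic cells, against medians of 2.56 to 6.77 in the other named identities. The noradrenergic markers were not absent from the other identities, at up to 209.6 in an Ach1 cell. In the P16 collection, labelled female, 5 of 5 cells had counts of Y-linked genes and 0 had counts of Xist. It enters no comparison between the sexes, and the Necab1 class means and differences that it moves are given without it as well. The labelled identities may have been drawn from these same transcriptomes, so p-values between them are not independent evidence.

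Necab1 was the member with most counts, 527 in 156 of 298 cells. It lies on chromosome 4 from 14952245 to 15149794, on the minus strand (GRCm38, GENCODE M21). The levels ran from Ach2 and Ach1 at the top, through Noradrenergic5 and Noradrenergic4, to Glutamatergic, Noradrenergic2 and Noradrenergic3 cells, and Noradrenergic1 cells had no count.

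The Ach2 level was 2.51 in P16, 3.33 in P29 male, 1.95 in P30 female and 2.11 in P38 male cells, a mean of 2.47 ± 0.614 (SD, n = 4 collections). Ach1 cells had a wider spread, with a lowest value of 0, a median of 1.96 and a highest of 4.17 over 7 collections, and a mean of 2.09 ± 1.51. Every Ach2 cell had a Necab1 count (8 of 8), as did 7 of 8 Ach1 cells. The 4 Ach2 collections lay inside the range of the 7 Ach1 collections.

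Noradrenergic5 cells had 0.734 as their lowest value, 1.24 as the median and 1.70 as the highest over 6 collections, a mean of 1.18 ± 0.389, and 22 of 23 cells had a count. In Noradrenergic4 cells the level was 1.65 in P11, 0.264 in P30 female, 0.965 in P31, 1.04 in P33 and 0.444 in P38 male cells, a mean of 0.873 ± 0.546 (n = 5), and 13 of 18 cells had a count. The ranges of the 2 identities overlapped.

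Glutamatergic cells had 0.490 in the P29 male, 0.691 in the P31 female and 0.391 in the P33 female collection, a mean of 0.524 ± 0.152 (n = 3). Noradrenergic2 ran from 0.0986 through a median of 0.333 to 1.71 over 7 collections, a mean of 0.500 ± 0.549, with counts in 27 of 39 cells. The highest value was the single P16 cell, and without it the mean was 0.298. Noradrenergic3, the largest identity, ran from 0 through 0.184 to 0.227 over 7 collections, a mean of 0.150 ± 0.0964, with counts in 33.98% of its cells (95% exact interval 24.9 to 43.97). The Noradrenergic3 values all lay below those of Noradrenergic4 and Noradrenergic5, and overlapped those of Noradrenergic2.

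None of the 10 Noradrenergic1 cells, from 5 collections, had a Necab1 count, where the exact 95% interval reaches 30.8% of cells with a count, and 3 counts over the group would be a level of 0.103. The median total of these cells was 27729 counts, against 28121 in Ach2 cells, where the share was 8 of 8. Ach2 is the identity with most Necab1. In Noradrenergic3, the next identity above Noradrenergic1, the median total was 36658 counts and the share 33.98%. What part depth has in the absence of counts was not tested. Each identity next to another in the order of means overlapped it in mean ± SD or in range.

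**Figure D1:**
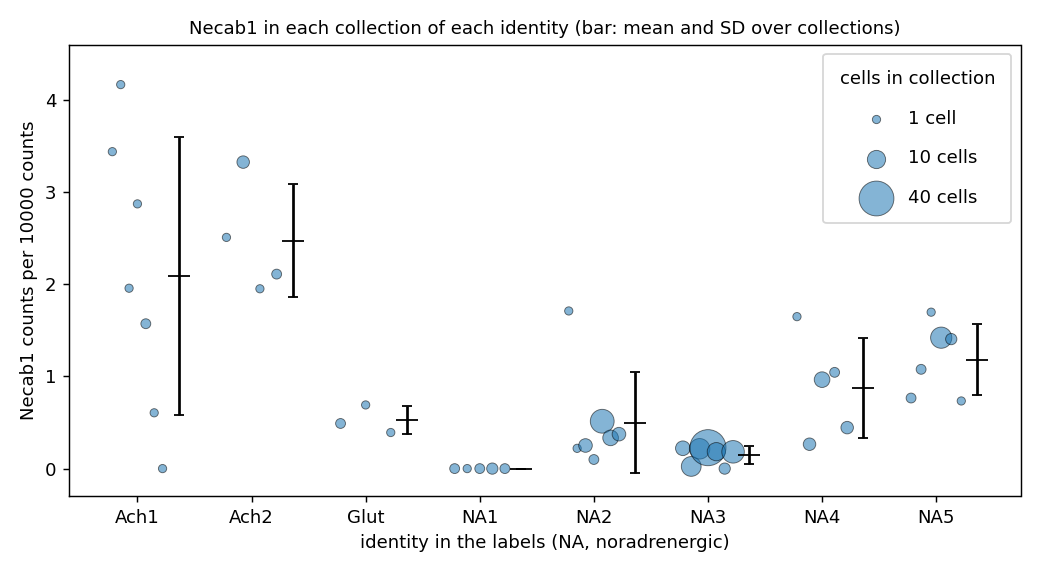
Necab1 counts per 10000 counts (vertical axis) in each collection of each labelled identity (horizontal axis); a point is a collection, its area follows the number of cells, and the bar beside each identity is the mean with its SD over collections. The Ach1 and Ach2 points reach 4.17 and 3.33, the Noradrenergic5 points lie between 0.734 and 1.70, and the 5 Noradrenergic1 points lie at 0 (NA stands for Noradrenergic, Glut for Glutamatergic).

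Part of the share of cells with a count follows from depth and level. After each cell was thinned to 15000 counts, with the 20 shallower cells left out, the shares were 6 of 7 in Ach1, 8 of 8 in Ach2, 20 of 22 in Noradrenergic5, 12 of 18 in Noradrenergic4, 18 of 39 in Noradrenergic2 and 20.4% in Noradrenergic3 cells. If all cells of an identity had its pooled level, 50.9 Noradrenergic3 cells would be expected to have a count, against 35 observed, and 32.6 Noradrenergic2 cells, against 27. In Noradrenergic5 the values were 22.3 and 22.

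Whether Necab1 differed between identities was tested with edgeR's quasi-likelihood F test on counts summed per identity and collection, with the collection as a block and Benjamini-Hochberg adjustment over 11555 genes. Over all 8 identities the adjusted p was 1.20e-29, and 2 of the 3 members tested were called, Necab1 and Calb1, where 10.4% of all genes were. Calb1 met the filter on low counts only with its Noradrenergic2 counts included. The fitted differences that have Noradrenergic1 on one side depend on how its counts of 0 are handled, so each is given also with that identity left out, an alternative chosen after the data were seen. With it left out, the share of all genes called was 5.5% for cholinergic, 2.86% for Glutamatergic, 1.84% for Noradrenergic2, 2.14% for Noradrenergic3, 1.06% for Noradrenergic4 and 1.21% for Noradrenergic5 cells.

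Necab1 was higher in cholinergic than in noradrenergic cells. Cholinergic cells of the 2 identities together averaged 2.13 ± 1.04 (n = 7, from 0.605 to 3.49), against 0.432 ± 0.479 in noradrenergic cells (n = 10, from 0 to 1.71), and the ranges overlapped. The noradrenergic value of 0 was P30 male, with 2 Noradrenergic1 cells only, and that of 1.71 was the single P16 Noradrenergic2 cell. Without the P16 collection the means were 1.98 ± 1.05 in cholinergic (n = 6, from 0.605 to 3.49) and 0.290 ± 0.175 in noradrenergic cells (n = 9, from 0 to 0.535), and the ranges did not overlap. The log2 fold change was 3.06 (SE 0.34, edgeR adjusted p = 6.13e-17). With Noradrenergic1 left out it was 1.81 (SE 0.26, adjusted p = 2.91e-10), and without P16 cells 3.22 (adjusted p = 1.63e-17). In this comparison 2 of the 3 members tested were called, where 4.57% of all genes were. Markers of satellite glia and Schwann cells summed to a median of 28.4 per 10000 in Ach1 and 29.5 in Ach2 cells (4.81 to 63.2 over both), against medians of 4.62 to 9.25 in the noradrenergic identities (0.864 to 66.2), with 12 to 14 of the 14 markers detected in each. With the glial level as a covariate the Necab1 log2 fold change was 3.13 (adjusted p = 1.53e-13).

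Against Noradrenergic5 alone, the noradrenergic identity with most Necab1, the cholinergic log2 fold change was 0.65 (SE 0.34, adjusted p = 0.412), and 2.92% of all genes were called. That comparison was chosen after the levels were seen. Ach1 against Ach2 gave -0.69 (SE 0.38, adjusted p = 0.700), with 0.138% of all genes called. Both missed the threshold, which does not show that the levels were alike. Glutamatergic against noradrenergic cells gave 0.86 (SE 0.69, adjusted p = 0.656), where 2.63% of all genes were called, and -0.39 (adjusted p = 0.840) with Noradrenergic1 left out.

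Among the noradrenergic identities Necab1 was high in Noradrenergic5 and absent from the counts of Noradrenergic1. Noradrenergic5 against the other noradrenergic identities gave a log2 fold change of 3.02 (SE 0.42, adjusted p = 1.40e-09), where 1.41% of all genes were called, and 1.55 (SE 0.29, adjusted p = 2.59e-05) with Noradrenergic1 left out. Noradrenergic4 gave 2.25 (SE 0.49, adjusted p = 0.000815), where 1.25% of all genes were called. Without Noradrenergic1 that difference was 0.73 (adjusted p = 0.432), and without the P31 female collection the adjusted p was 0.0825.

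Noradrenergic3 gave -0.22 (adjusted p = 0.930), where 1.74% of all genes were called, but -1.90 (SE 0.28, adjusted p = 4.84e-09) once Noradrenergic1, at 0, was off the other side. Noradrenergic2 gave 1.21 (adjusted p = 0.423), where 1.64% of all genes were called, and -0.38 (adjusted p = 0.848) with Noradrenergic1 left out. Noradrenergic1 was at least 6.48-fold lower than the other 4 noradrenergic identities weighted equally, and at least 4.15-fold lower than their cells pooled, when its level is set at 3 counts over the group (edgeR adjusted p = 0.000277, where 1.39% of all genes were called). In cells thinned to 15000 counts the adjusted p was 0.0938. Noradrenergic3 cells alone pooled 0.185, against 0.103 for 3 counts in Noradrenergic1, so the folds of 6.48 and 4.15 do not hold against each identity.

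Noradrenergic4 and 5 cells together had 0.923 ± 0.315 (n = 7, from 0.444 to 1.28), against 0.362 ± 0.514 in Noradrenergic2 and 3 cells together (n = 9, from 0 to 1.71). The log2 fold change between these pairs, set against each other after the levels were seen, was 1.71 (SE 0.26, adjusted p = 6.24e-09), where 3.63% of all genes were called. Without the single P16 cell the Noradrenergic2 and 3 mean was 0.193 ± 0.0985 (n = 8, from 0 to 0.320), below every Noradrenergic4 and 5 value, and the log2 fold change was 1.77 (adjusted p = 2.63e-09).

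**Figure D2:**
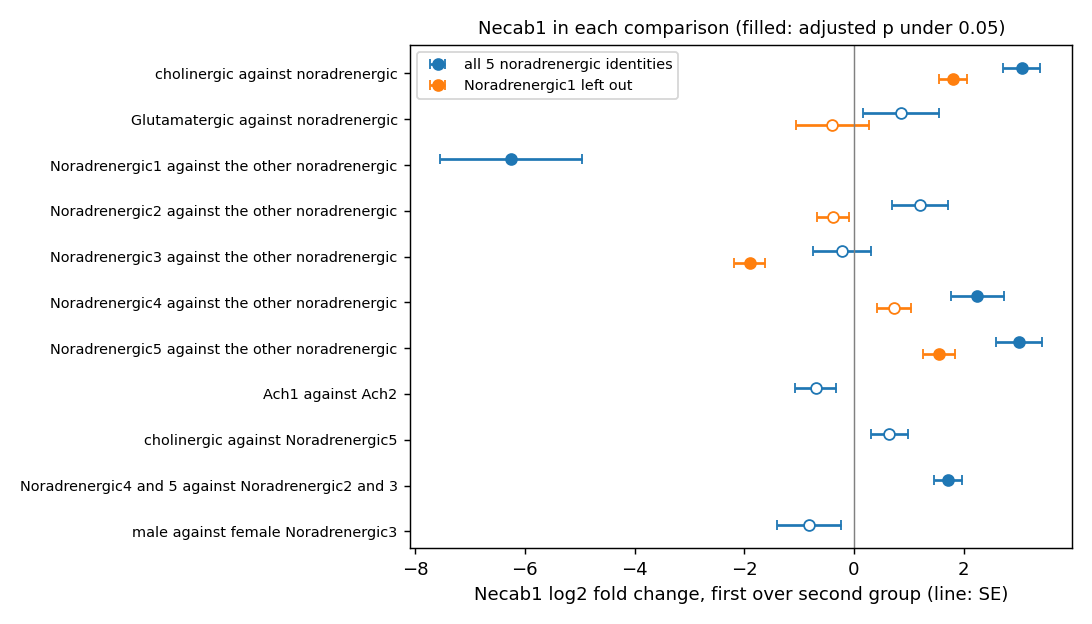
Necab1 log2 fold change in each comparison (horizontal axis, first-named group over second-named), with its SE as a line; filled points passed an adjusted p of 0.05, and orange points have Noradrenergic1 left out of the noradrenergic side. The points of cholinergic against noradrenergic and of Noradrenergic5 against the other noradrenergic identities stay right of 0 and filled in both fits. That of cholinergic against Noradrenergic5 is open, and the Noradrenergic2 point crosses from 1.21 to -0.38.

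The sexes were compared in Noradrenergic3 only. Male cells had 0.0234 in the P29 and 0.182 in the P38 collection, against 0.221, 0.215, 0.227, 0.184 and 0 in the P11, P30, P31, P33 and P34 female collections. The male values lay inside the female range. The log2 fold change of male over female was -0.82 (SE 0.59, adjusted p = 1.00, unadjusted p = 0.176), with 0.0296% of 10141 genes called, and it was -3.01 without the P38 male and -0.14 without the P29 male collection. Sex and age cannot be told apart here, since the male and female ages differ.

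Single cells show how uneven Necab1 was among the cholinergic cells. The Ach1 cell of P16 had 14 Necab1 counts and no count of Th (tyrosine hydroxylase, which makes the catecholamine precursor L-DOPA), and those of P29 male, P30 female and P30 male had 10, 11 and 4 Necab1 counts, also with no Th count. The 2 Ach1 cells of P31 had 2 and 14 Necab1 counts with 61 and 33 Th counts. The P33 cell had 2 with 46, and the P38 male cell 0 with 57. Ach2 cells had 3 to 14 Necab1 counts and 0 to 3 Th counts. The 4 Glutamatergic cells had 0, 2, 2 and 2 Necab1 counts, with 3, 0, 1 and 130 Th counts. These are 20 cells in all, and no test was made on them.

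**Figure D3:**
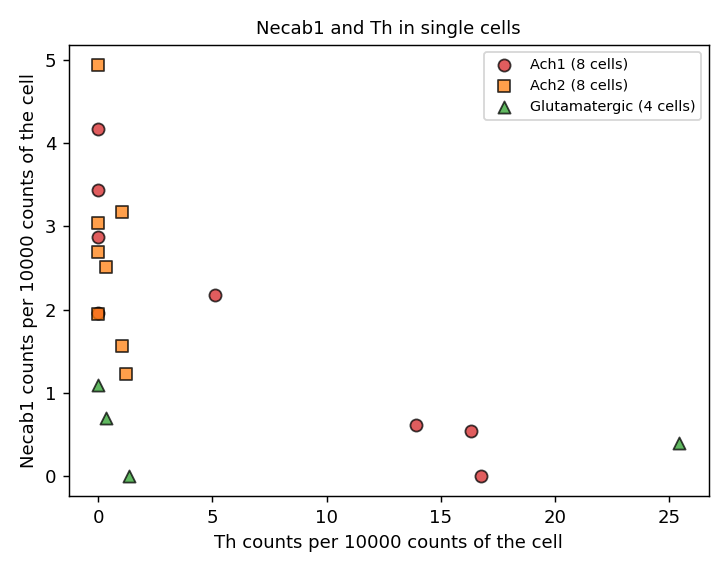
Necab1 (vertical axis) against Th (horizontal axis) in single Ach1, Ach2 and Glutamatergic cells, both as counts per 10000 counts of the cell; a point is a cell. The 8 Ach2 cells, with 0 to 3 Th counts each, lie at the left, and the 8 Ach1 cells spread along both axes.

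The annotation places the antisense gene Gm11837 inside the Necab1 interval. It had 23 counts in 22 cells, 12 of them Noradrenergic3, and whether the counting used strand is not given in the sources used here, so reads of the 2 genes may not be told apart. The longest run shared between transcripts of Necab1 and Necab3 was 23 bases, and between Necab1 and Necab2 14 bases.

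The genes whose levels ran most like Necab1, by Pearson correlation of log2 CPM over the 18 libraries of at least 3 cells, were Lin7a (0.899), Slc7a3 (0.873) and Ptprg (0.837). Lin7a is a scaffold protein of synapses and cell junctions, Slc7a3 a transporter of cationic amino acids and Ptprg a receptor tyrosine phosphatase. The libraries share identities, collections and depth, 7 of them are Noradrenergic3 and none is Ach1 or Glutamatergic, so the values are a description. Over all 44 libraries the 3 most like were Slc7a3 (0.747), Scn7a (0.699) and Edn3 (0.694). Lin7a pooled 1.12 per 10000 in Ach1, 0.708 in Ach2 and 0.546 in Noradrenergic5 cells, against 0.0520 in Noradrenergic3 cells. Slc7a3 pooled 2.70 in Ach1, 2.33 in Ach2, 1.98 in Glutamatergic and 0.837 in Noradrenergic5 cells, against 0.0962 in Noradrenergic3 cells. Ptprg pooled 0.560, 0.833 and 0.546 in Ach1, Ach2 and Noradrenergic5 cells, against 0.0390 in Noradrenergic3 cells. In Noradrenergic1 cells, where Necab1 had no count, Lin7a was at 0.172, Slc7a3 at 0.103 and Ptprg at 0.0344, the last from 1 of 10 cells. A level of 0.103 is that of 3 counts over the group, so Slc7a3 and Ptprg cannot be told from the 0 of Necab1 there.

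Calb1 was sparse, with 31 counts in 23 of 298 cells. It lies on chromosome 4 from 15881264 to 15908064, on the plus strand. Of the 27 counts in named cells, Noradrenergic2 held 14 (in 9 of 39 cells), Ach1 4 (in 1 of 8), Ach2 3 (in 3 of 8), Noradrenergic1 2 (in 2 of 10), Noradrenergic3 3 (in 3 cells) and Noradrenergic5 1 (in 1 of 23). By pooled level the order was Ach1 (0.132 per 10000), Ach2 (0.125), Noradrenergic2 (0.0811), Noradrenergic1 (0.0689), Noradrenergic5 (0.0121) and Noradrenergic3 (0.00780). Noradrenergic4 and Glutamatergic cells had none, and the exact 95% intervals of their shares reach 18.5% and 60.2% of cells with a count.

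Over the 8 identities Calb1 passed the test (edgeR adjusted p = 0.00209). Cholinergic cells averaged 0.219 ± 0.441 (n = 7, from 0 to 1.21), against 0.0158 ± 0.0177 in noradrenergic cells (n = 10, from 0 to 0.0521), a log2 fold change of 2.73 (SE 0.78, adjusted p = 0.0141). Of the 7 cholinergic counts, 4 were in the single P33 Ach1 cell. By counts the cholinergic level was 4.73 times the noradrenergic one (95% interval 1.69 to 11.6, counting error only), and 2.16 times (0.411 to 7.28) without that cell. The log2 fold change was -0.17 (adjusted p = 1.00) in libraries of at least 2 cells, 1.72 (adjusted p = 0.155) with the chip as block and 2.54 (adjusted p = 0.0584) with the glial level as covariate. Without the P29 male or the P30 female collection the adjusted p was 0.0533 or 0.0664, and Calb1 did not pass the filter without the P31 or the P33 female collection.

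Noradrenergic2 cells had 0 to 0.133 over 7 collections, a median of 0.0899 and a mean of 0.0593 ± 0.0573, and Noradrenergic1 cells were close to them, at 0.0536 ± 0.0801 (n = 5). By counts the Noradrenergic2 level was 7.60 times that of Noradrenergic1, 3, 4 and 5 cells pooled (95% interval 2.74 to 24.1, counting error only). That ratio does not hold against Noradrenergic1 alone, which pooled 0.0689 per 10000, against 0.0811 in Noradrenergic2 cells. The log2 fold change of Noradrenergic2 against the other noradrenergic identities was 2.20 (SE 0.69) and missed the threshold (edgeR adjusted p = 0.0756). It was 3.05 (adjusted p = 0.00610) with Noradrenergic1 left out, 1.91 (adjusted p = 0.0252) with the chip as block and 2.22 (adjusted p = 0.0267) with no collection block. Only these 3 of the 16 alternatives gave a call. Over the 16 the log2 fold change went down to 1.075, with limma voom, and the adjusted p up to 0.332.

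Calretinin was found in 1 cell of 298. That cell, Ach2 from the P29 male collection, had 4 Calb2 counts of 28337 in all, and also had 14 Necab1 counts, the most of any Ach2 cell, and 119 counts of Sst (somatostatin), again the most. No noradrenergic cell had a Calb2 count (0 of 193), and in Noradrenergic3, with none, the exact 95% interval reaches 3.52% of cells with a count. Calb2 lies on chromosome 8 from 110137502 to 110168210, on the minus strand.

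Necab2 had 1 count in each of 4 cells, 1 in the P16 Ach1 cell and 3 in unclassified cells. It lies on chromosome 8 from 119446719 to 119472640, on the plus strand. Calb2 and Necab2 were too sparse for a test, and a difference between identities was not detectable at this depth.

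Necab3 had 41 counts in 32 of 298 cells and was spread over the identities. It lies on chromosome 2 from 154544399 to 154558890, on the minus strand. Noradrenergic3 held 26 counts in 17 cells, Noradrenergic5 4 in 4 of 23, Noradrenergic2 3 in 3 of 39 and Noradrenergic4 2 in 2 of 18. Noradrenergic1, Ach1 and Glutamatergic cells had 1 count each, and Ach2 cells 0 in 8. The means over collections were 0.0444 ± 0.0365 in Noradrenergic3 (n = 7) and 0.113 ± 0.0960 in Noradrenergic5 (n = 6), and their ranges overlapped. Necab3 did not pass the test over the 8 identities (edgeR adjusted p = 0.674) or in any single comparison, the closest being Noradrenergic3 at a log2 fold change of 1.04 (SE 0.60, adjusted p = 0.587) and cholinergic against Noradrenergic5 at -2.27 (SE 1.47, adjusted p = 0.572). The overlapping gene 1700003F12Rik had 4 counts, none in a cell with Necab3.

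**Figure D4:**
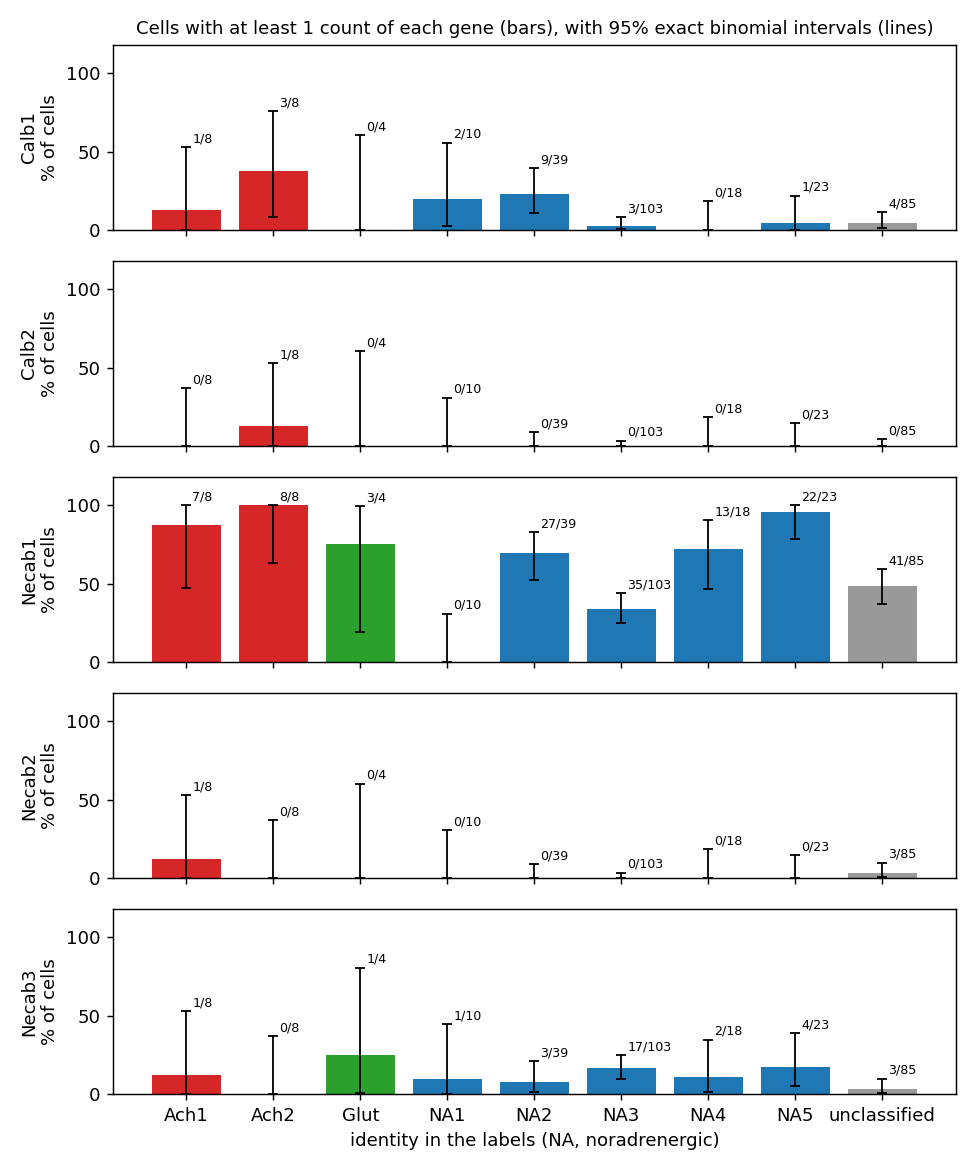
Percent of cells with at least 1 count (vertical axis, one panel a gene) in each labelled identity and in the unclassified cells (horizontal axis), with exact binomial 95% intervals that cover counting error only. Necab1 reaches 8 of 8 Ach2 cells and 0 of 10 Noradrenergic1 cells, Calb1 reaches 3 of 8 Ach2 and 9 of 39 Noradrenergic2 cells, and Calb2 is seen in 1 Ach2 cell (NA stands for Noradrenergic, Glut for Glutamatergic).

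No member had a count in 115 cells, 1 had in 150 and 2 had in 33, and no cell had counts of 3. Calb1 with Necab1 was seen in 14 of the 23 Calb1 cells and Necab3 with Necab1 in 16 of the 32 Necab3 cells, where 156 of all 298 cells had Necab1. Calb1 and Necab3 were seen together in 0 cells.

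Around the members, 31 other EF-hand calcium buffers and sensors were tested. In cholinergic against noradrenergic cells 1 of them was higher and 10 were lower, with a median log2 fold change of -0.41, against -0.20 over all genes, where 2.17% of genes were higher and 2.40% lower. With RLE size factors in place of TMM the list had 2 higher and 9 lower and a median of -0.26, against -0.04 over all genes, where 338 genes were higher and 219 lower instead of 251 and 277. S100a13, a small calcium-binding protein secreted without a signal peptide, was at 0.2502 ± 0.627 (SD, n = 7 collections) in cholinergic and 3.54 ± 2.07 (n = 10) in noradrenergic cells (log2 fold change -4.16, SE 0.40, edgeR adjusted p = 7.31e-22). S100a1, a calcium sensor of muscle and nerve, was at 0.429 ± 0.864 and 1.74 ± 0.537 in the same groups (-1.93, SE 0.35, adjusted p = 4.16e-06), and its call was lost in libraries of at least 2 cells (adjusted p = 0.152). The list's single higher gene was Vsnl1, a neuronal calcium sensor, at 1.08 ± 0.885 in cholinergic and 0.363 ± 0.235 in noradrenergic cells (1.54, SE 0.31, adjusted p = 5.26e-05). Without the P38 male collection 6 of the list were lower. The genes called of all tested, in either direction, also moved, from 528 in the main fit to between 279 and 773 over the alternatives. The fall in the list is therefore not read as particular to it.

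**Figure D5:**
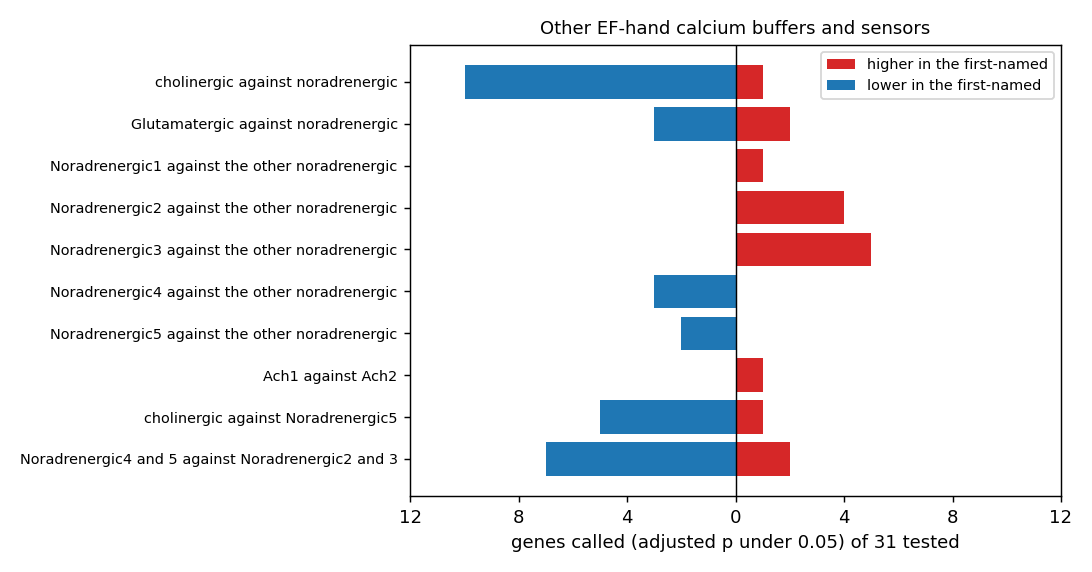
Number of the 31 tested EF-hand genes, members not included, called higher (red, to the right) or lower (blue, to the left) in the first-named group of each comparison at an adjusted p under 0.05. In cholinergic against noradrenergic cells 10 were lower and 1 higher, and in Noradrenergic2 and in Noradrenergic3 all called genes, 4 and 5, were higher (with RLE size factors 1 was lower in Noradrenergic2).

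Noradrenergic4 and 5, with more Necab1, had less of several of these genes than Noradrenergic2 and 3: 7 of 31 were lower and 2 higher, with a median of -0.27, against -0.10 over all genes, where 1.32% were higher and 2.32% lower. With RLE size factors the counts were again 7 and 2, while over all genes 203 were higher and 211 lower instead of 152 and 268. Ncald (neurocalcin delta) was at 5.17 ± 1.79 (n = 7) in Noradrenergic4 and 5 and 16.1 ± 3.18 (n = 9) in Noradrenergic2 and 3 cells (log2 fold change -1.81, SE 0.23, edgeR adjusted p = 2.01e-10), and the ranges did not overlap. S100a13 was lower by the same test (-1.37, adjusted p = 4.89e-09), while Kcnip4, a potassium channel-interacting protein, was higher (0.81, adjusted p = 0.00484), as was Tesc, or tescalcin (0.80, adjusted p = 0.0104). Both of these calls were lost without the P31 female collection, and that of Kcnip4 also without the P38 male collection and without the collection block. Both were lost in thinned cells and with limma voom as well, and that of Kcnip4 with DESeq2.

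Single identities had few called genes of the list. In Noradrenergic2 4 of the 31 were higher and 0 lower (1.36% and 0.277% of all genes), led by Hpca, or hippocalcin (log2 fold change 1.61, edgeR adjusted p = 5.38e-08). In Noradrenergic3 5 were higher and 0 lower (1.46% and 0.277% of all genes), led by S100a13 (1.12, adjusted p = 1.02e-06) and Caln1, or calneuron (2.38, adjusted p = 5.21e-06). With RLE size factors 2 were higher and 1 lower in Noradrenergic2 and 3 were higher in Noradrenergic3, where 115 of all genes were then higher and 45 lower instead of 169 and 32. For Noradrenergic2 the genes called of all tested, in either direction, were 189 in the main fit and 61 to 273 over the alternatives. In Noradrenergic4 0 were higher and 3 lower (0.952% and 0.303% of all genes), led by Hpca (-2.19, adjusted p = 6.27e-05). In Noradrenergic5 0 were higher and 2 lower (0.788% and 0.623% of all genes), Ncald (-1.31, adjusted p = 0.00222) and Caln1, which had no count in 23 cells. The Ncald call was lost without the P30 female or the P30 male collection, and with RLE size factors, edgeR's filterByExpr or limma voom. The Caln1 call was lost without the P31 female collection, with DESeq2 and in thinned cells. In Noradrenergic1 1 was higher and 0 lower (0.865% and 0.528% of all genes): Kcnip3, with all its counts in 1 of 10 cells.

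In Glutamatergic against noradrenergic cells 2 of the list were higher and 3 lower (1.62% and 1.01% of all genes), led by S100a13 (1.58, edgeR adjusted p = 5.23e-06) and Hpcal4, a hippocalcin-like calcium sensor (-3.30, adjusted p = 6.70e-05). Markers of satellite glia and Schwann cells summed to a median of 27.1 per 10000 in Glutamatergic cells (14.9 to 49.7, 12 of 14 markers detected), against medians of 4.62 to 9.25 in the noradrenergic identities, and both calls held with the glial level as covariate. With RLE size factors 4 were higher and 1 lower, and over all genes 291 were higher and 46 lower instead of 187 and 117. In Ach1 against Ach2 1 was higher and 0 lower (0.0433% and 0.0952% of all genes), Kcnip4 (3.52, adjusted p = 0.0213), whose call was lost without the P38 male collection. That Kcnip4 call was also lost with DESeq2, with edgeR's filterByExpr, in thinned cells and in libraries of at least 2 cells. Without the collection block the calls were lost of S100a13 in Glutamatergic cells (adjusted p = 0.0556) and in Noradrenergic3, of Hpca in Noradrenergic4 (adjusted p = 0.0507), of Ncald in Noradrenergic5, of Kcnip3 in Noradrenergic1 and of Kcnip4 in Ach1. The S100a13 call in Noradrenergic3 was also lost with DESeq2 and limma voom. The Kcnip3 call was also lost with DESeq2, with the glial level as covariate and with no low count filter.

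Of 28 calcium pumps, exchangers and store proteins, 2 were higher and 2 lower in cholinergic than in noradrenergic cells, with a median of -0.15, against -0.20 over all genes, where 2.17% were higher and 2.40% lower. With RLE size factors 4 were higher and 1 lower, where 338 of all genes were higher and 219 lower. Slc24a2, a potassium-dependent sodium-calcium exchanger, was at 1.82 ± 2.07 in cholinergic and 0.0546 ± 0.0397 in noradrenergic cells (log2 fold change 3.38, SE 0.38, edgeR adjusted p = 2.07e-16), and every cholinergic collection (0.605 to 6.46) lay above every noradrenergic one (0 to 0.101). Atp2b2, a plasma membrane calcium pump, was lower (-2.51, adjusted p = 9.23e-05). Mcu, the pore of the mitochondrial calcium uniporter, was lower in Noradrenergic4 and 5 than in Noradrenergic2 and 3 (0.110 ± 0.0818 and 0.358 ± 0.104, log2 fold change -2.02, adjusted p = 3.97e-05), where 0 of the 28 were higher and 2 lower (1.32% and 2.32% of all genes). Of 11 voltage-gated calcium channel genes, Cacna1c was higher (2.79, adjusted p = 0.0167) and Cacna2d3 lower (-1.89, adjusted p = 0.00640) in cholinergic cells, with a median of -0.16, against the same -0.20 and shares over all genes. The Cacna1c call was lost without the P29 male or the P30 female collection. The Cacna2d3 call was lost without the P31 female or the P38 male collection and in libraries of at least 2 cells.

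Among the 5 reported partners of NECAB proteins 3 were tested. Syt1, the synaptotagmin that binds calcium at synaptic vesicles, was lower in cholinergic than in noradrenergic cells (-1.004, SE 0.20, edgeR adjusted p = 2.64e-05), at 13.4 ± 12.3 and 17.5 ± 3.32 with overlapping ranges. In Glutamatergic cells it was at 5.22 ± 0.831 (n = 3), against the same noradrenergic level (-1.79, SE 0.37, edgeR adjusted p = 0.000161), and this call was lost without the P29 male collection (adjusted p = 0.0557). It was also lower in Noradrenergic1 than in the other noradrenergic identities, at 7.99 ± 3.58 (n = 5) and 18.5 ± 2.58 (n = 9), with a log2 fold change of -1.61 (SE 0.28, adjusted p = 2.84e-06) and no overlap between the ranges. Every Noradrenergic1 cell had Syt1 counts (10 of 10). The other 2 tested partners were not called in these comparisons.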

How the data were processed

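The deposited table holds raw counts, as whole numbers per gene and cell, made by the authors from polyadenylated RNA of cells caught on microfluidic chips and barcoded with Tn5 transposase, per the labels' protocols. The genome build is mm10, per the submitters' processing notes, and the aligner, counting program, annotation and collapsing of molecules are not given in the sources used here. All 298 columns were matched to a labelled cell, and 0 columns were identical.

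Counts were summed per identity and collection into 44 libraries of 1 to 43 cells, 16 of them single cells. Only genes with 20 or more counts, found in 3 or more libraries, were tested. TMM factors entered the robust quasi-likelihood fit of edgeR 4.0.16, identities were weighted equally, tests were two-sided, and the threshold was an adjusted p of 0.05 (Benjamini-Hochberg over all genes tested). An SE is the absolute log2 fold change over the square root of F. The collection was kept as a block: in 10 libraries of at least 5 cells and 4485 genes, the 4 pairs that share a collection had correlated deviations around their identity means (0.137 to 0.196), and the other 20 pairs averaged -0.034. The sex comparison used Noradrenergic3 cells of collections with at least 3. Collections may be technical or pooled replicates. P-values between identities measure the spread among libraries that is left after identity and collection are fitted. Those between the sexes, fitted with no block, measure the spread between collections.

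Intervals are exact (Clopper-Pearson for shares, conditional for ratios of counts) and, like the floor of 3 counts, cover counting error only. Named genes are the members, the 3 genes most like each tested member (log2 CPM, prior count 2, libraries of at least 3 cells) and at most 2 genes per direction and list by adjusted p. The members and lists were chosen with earlier results of these data known. The fit was tested on simulated data. Alternatives were RLE scaling, DESeq2 1.42.0, limma 3.58.1 with voom, other filters, thinned cells, chips, a glial covariate, no block and leaving out each collection. Unclassified cells entered no comparison.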

Additional observations from a re-analysis of the deposited data

Results flagged for a closer look

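Values of 9 of the 20 combinations of member and identity with 4 to 10 collections and any count held a collection far from the rest of its group. Chance flags about 1 in 20 groups, but 6 of the 9 had every other collection at 0, where any count is far from the rest. Whether the number flagged is more than chance gives was not tested. The P16 Noradrenergic2 cell had 8 Necab1 counts, 1.71 per 10000, against 0.514 in the next collection. The P33 Ach1 cell had 4 Calb1 counts, 1.21 per 10000, and the other 6 Ach1 collections had 0. Calb1 stood at 0.0441 in P11 Noradrenergic3 and at 0.0187 in P31 Noradrenergic5 cells. Calb2 stood at 0.403 in P29 male Ach2 cells, from 1 cell. Necab2 stood at 0.246 in the P16 Ach1 cell. Necab3 stood at 0.0982 in P31 Ach1, 0.221 in P30 male Noradrenergic1 and 0.220 in P20 Noradrenergic2 cells, each from 1 count.

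The 85 unclassified cells, which entered no comparison, had 98 Necab1 counts in 41 cells, with up to 7 a cell, and 4 Calb1 counts in 4 cells. Their Necab1 level ran from 0 to 0.729 per 10000 over 7 collections. At a median total of 22977 counts per cell they were shallower than any named identity's cells at the median.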

How the results depend on the processing

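Necab1 stayed higher in cholinergic cells under all 21 alternatives (log2 fold change 1.81 to 3.42) and in Noradrenergic5 under all 21 (1.55 to 3.18). In cholinergic against noradrenergic cells 2 members were called, and only 1, Necab1, with DESeq2, thinned cells, filterByExpr, chip as block, the glial covariate or libraries of at least 2 cells, and 1 to 2 when a collection was left out. Over any of the 8 identities 2 were called, and 1 with DESeq2, thinned cells, filterByExpr or libraries of at least 2 cells, and 1 to 2 without a collection. Calb1 was not tested in thinned cells, with filterByExpr or without the P31 or P33 female collection, for too few counts, and DESeq2 gave it no adjusted p; for the other losses the cause was not tested. For Noradrenergic1 the 1 member called became 0 in thinned cells and 2 with limma voom. For Noradrenergic2 the 0 called became 1, Calb1, with chip as block, no replicate block or Noradrenergic1 left out; without the block no other call of a member changed. For Noradrenergic3 the 0 called became 1 with Noradrenergic1 left out and 2 with limma voom. For Noradrenergic4 the 1 called became 0 in thinned cells, with limma voom and with Noradrenergic1 left out, and ranged from 0 to 1 without a collection.

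The Necab1 log2 fold change turned to -0.39 in Glutamatergic and -0.38 in Noradrenergic2 with Noradrenergic1 left out, to 0.055 in Noradrenergic3 in libraries of at least 2 cells and to 0.16 for male over female in thinned cells; that of Calb1 in cholinergic cells turned to -0.17 in libraries of at least 2 cells. The 3 genes most like Calb1 were Sp4 (0.770), C1qtnf7 (0.765) and Rnd3 (0.759), and those most like Necab3 were H13 (0.793), Hecw1 (0.791) and Purg (0.780). Of the 3 genes most like each tested member, Necab1 kept 2 with Spearman correlation and 1 over all libraries, Necab3 kept 2 and 0, and Calb1 kept 0 and 0. Depth limits Calb1, Calb2, Necab2 and Necab3, with 4 to 41 counts each.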
